A study of Homo sapiens with 68 samples.

Results

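RBFOX2 was profiled by TLC-CLIP in the human embryonic kidney line HEK293T, from 1000 and from 10000 cells, and the peak lists of both inputs were compared by site and by gene. The group RBFOX2_1k held 2 libraries made with 0.0001 U of RNase, and RBFOX2_10k held 2 libraries made with 0.001 U. These are 4 of the 68 libraries of the series. They were chosen by their labels. All 4 came from cells crosslinked with ultraviolet light, used an antibody sold under the older name RBM9, and kept the gel purification (PAGE) of the protein with its RNA. Cell number and RNase amount changed together, so their shares in any difference cannot be told apart. Other lists served as yardsticks, each with 2 libraries from the same cell line. RBFOX2_50k_lowRNase used 50000 crosslinked cells and 0.005 U of RNase, and noUV_RBFOX2 used the same cell number and RNase without crosslinking. The hnRNP C groups hnRNPc_10k and hnRNPc_1k used 10000 and 1000 crosslinked cells with the same RNase amounts as the RBFOX2 groups. The labels number the libraries of a group but do not say whether they came from separate cultures, so a p-value measures only the spread between these libraries, which may be technical.

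RBFOX2 is a splicing regulator of the RBFOX family. It binds RNA through a single RNA recognition motif, mostly in introns beside alternative exons, and acts on exon inclusion or skipping according to the side on which it binds. CLIP freezes such contacts with ultraviolet light, recovers the protein with an antibody and sequences the RNA fragments left on it. A peak is a stretch where a peak caller found more reads than it takes for background. Fewer cells give fewer crosslinked fragments to start from, so the comparison asks which RBFOX2 targets were still listed from the smaller input.

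The lists from 1000 cells were shorter, thinner and narrower. RBFOX2_10k listed 140539 and 167449 peaks, and RBFOX2_1k listed 49247 and 72602. The 2 groups did not overlap, and on the log2 scale the mean peak number fell by 1.36, a 2.57-fold lower value (log2 17.2 ± 0.179 against 15.9 ± 0.396, SD, n = 2 each; exact two-sided permutation p = 0.33, the smallest that 2 against 2 libraries allow). Restricted to peaks with a deposited p below 1e-05, the log2 difference was -2.01. The number of distinct genes fell much less, from 12991 and 13561 to 9652 and 10845. A listed gene held on average 10.8 and 12.3 peaks at 10k and 5.10 and 6.69 at 1k. For hnRNP C the same step from 10k to 1k moved the log2 peak number by -0.47, from 264496 and 267111 peaks to 175305 and 208968. The difference between the proteins was not tested.

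Most peaks from 1000 cells rested on few reads. The last number in each peak name was read as the reads of that peak, and it was never below 5 in these 4 lists. Its median was 8 in both 10k libraries and 6 in both 1k libraries. Peaks at exactly 5 reads were 17.1% and 17.2% of the 10k lists and 34.9% and 33.4% of the 1k lists. At the other end, 3785 and 5083 peaks of the 10k lists had at least 64 reads, against 312 and 439 at 1k. Summed over all listed peaks the reads were 2651665 and 3298899 at 10k and 482222 and 703998 at 1k. These sums cover listed peaks only and are not the depth of the libraries, which is unknown. The covered length was 8874367 and 10254535 nt at 10k and 2595085 and 3670632 nt at 1k.

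To compare positions, overlapping peaks of the 4 libraries on the same strand were joined into 283087 sites, with a median width of 65 nt. A site counts as found in a library that has a peak in it. Both 10k libraries found 56033 sites. Of these, RBFOX2_1k replicate 1 found 14327 (25.6%) and replicate 2 found 17747 (31.7%), a mean of 28.6% ± 4.32 (SD, n = 2). At least 1 of the 1k libraries found 23919 sites (42.7%), both found 8155 (14.6%), and 32114 (57.3%) were in neither. The 10k libraries themselves shared only part of their sites: 44.0% of those of replicate 1 were in replicate 2, and 36.9% the other way. For the 1k libraries these shares were 22.8% and 15.4%. The mean share found depended on asking both 10k libraries for the site. With the sites of a single 10k library as the base it was 13.2% without RBFOX2_10k replicate 1 and 15.2% without replicate 2. With the same number of peaks, those with the smallest deposited p, taken from every list it was 45.1%.

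Genes were listed again far more often than single sites, but by a looser rule. A gene here is the Ensembl identifier that the peak name carries. Any 1k peak with that identifier counts, also at a position without a 10k peak. The genes that could be tested over sites found in all 4 libraries numbered 4111. Both 10k libraries listed 12150 genes, of which RBFOX2_1k replicate 1 listed 8979 (73.9%) and replicate 2 listed 9875 (81.3%), a mean of 77.6% ± 5.21 (SD, n = 2). Both 1k libraries listed 8152 of them (67.1%), and 1448 (11.9%) were in neither. The share of genes of one 10k library that the other listed was 93.5% and 89.6%. Between the 1k libraries it was 86.3% and 76.8%. Of all 8332 genes listed by both 1k libraries, 97.8% were in both 10k libraries and 55 (0.660%) in neither.

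Whether a site was found at 1k went with its reads at 10k. Among sites whose lower 10k read number was 5 to 7, the 1k libraries found 8.81% and 12.9% of 18447. For 16 to 31 reads they found 41.2% and 50.0% of 10144 sites, and for 64 to 127 reads 85.1% and 88.2% of 1439. Among the 196 sites with at least 256 reads each 1k library found 92.9%, and 12 sites were in neither. Replicate 2, the longer 1k list, found more than replicate 1 in every range up to 127 reads. The sites found in both 1k libraries were few but deep. Reads were summed here over the strongest peak of each site. In 10k replicate 1 these sites were 6.75% of its sites with 30.8% of that sum, and in replicate 2 they were 5.72% with 28.3%.

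**Figure D1:**
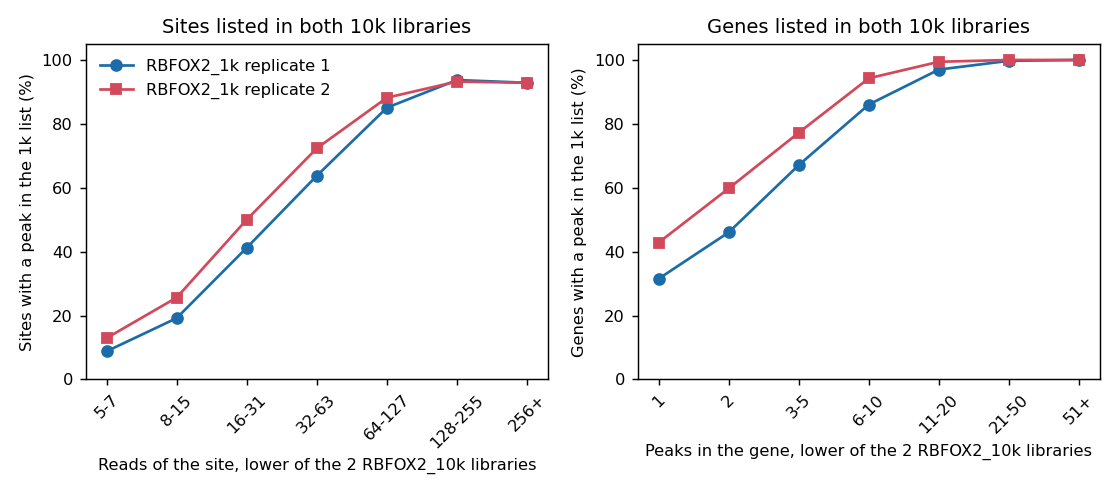
Left, percent of the 56033 sites listed in both RBFOX2_10k libraries that each RBFOX2_1k library also listed, by the lower 10k read number of the site. Right, percent of the 12150 genes listed in both 10k libraries that each 1k library listed, by the lower number of 10k peaks in the gene. Each point is 1 library in 1 range. Sites rose from 8.81% and 12.9% at 5 to 7 reads to 92.9% at 256 reads or more, and genes from 31.5% and 42.8% with 1 peak to 100% with 51 or more.

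The same grading held for genes by their number of peaks. Genes with 1 peak in the poorer 10k library were listed by the 1k libraries in 31.5% and 42.8% of 1891 cases. With 3 to 5 peaks the shares were 67.1% and 77.2%, with 11 to 20 peaks 97.0% and 99.4%, and all 262 genes with at least 51 peaks were in both 1k lists. The 8152 genes kept in both 1k libraries had a median of 11 and 13 peaks at 10k, and a strongest peak of 22 and 24 reads. The 1448 genes in neither had a median of 2 peaks in each 10k library and a strongest peak of 8 reads. Genes with many sites were kept with only some of them. In the 30 genes with at least 50 sites in both 10k libraries, 1k replicate 1 found 16.1% to 40% of the sites of a gene (median 26.2%) and replicate 2 found 23.1% to 54% (median 31.8%).

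Crowding of sites went with recovery among the stronger sites. Of sites with 32 to 63 reads and no other site of both 10k libraries within 1000 nt, the 1k libraries found 76.6% and 84.6% of 624. Where another such site lay within 200 nt they found 59.6% and 67.8% of 2424. Weak sites of 5 to 7 reads went the other way by a small margin, with 8.58% and 12.6% for lone sites and 10.2% and 14.7% for crowded ones. By chromosome, the share found ranged from 21.6% to 29.6% in 1k replicate 1 and from 28.2% to 36.6% in replicate 2 over chromosomes 1 to 22 and X. On the mitochondrial chromosome, whose 57 sites in both 10k libraries had a median of 80 reads, it was 56.1% and 66.7%.

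Strong sites were taken by their worst rank by reads over the 4 libraries, with 1 site per gene, a choice that fixes their strength at both inputs. The first lay at chr11:62609131-62609282 (hg19, minus strand), with 22768 and 28124 reads at 10k and 4151 and 5851 at 1k. The second was chrM:1673-1777 (plus strand), with 7578 and 7218 reads at 10k and 2476 and 2592 at 1k. The third was chr10:103124632-103124701 (minus strand), with 3455 and 3923 reads against 762 and 978. After it came chrM:1355-1493 (plus strand) with 2200 and 2323 reads against 792 and 722, and chr1:109642836-109643003 (plus strand) with 2949 and 3868 against 518 and 848. All 5 were also listed without crosslinking, and all 5 in both libraries of each hnRNP C group. In the libraries without crosslinking the chromosome 11 site had 8466 and 11540 reads, and the chromosome 1 site 81 and 57. Measured as a share of reads (log2 reads centred on the median of each library), 1 of these 5 sites passed limma's test: the chromosome 11 site fell by 0.57 at 1k (SE 0.103, adjusted p = 0.0107). That call was lost in 6 of its 11 alternatives, among them the fits without RBFOX2_1k replicate 1 and without replicate 2.

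Among strong sites that neither 1k library listed, some had a 1k peak close by. Of the 102 lost sites with at least 64 reads in both 10k libraries, 24 (23.5%) had a 1k peak within 30 nt and 77.5% had one within 200 nt. Of the 27941 lost sites with a lower read number of 5 to 15, these shares were 3.46% and 18.3%. The site chrX:73071112-73071150 (minus strand) had 330 and 546 reads at 10k. The nearest 1k peaks began 47 and 38 nt away with 455 and 673 reads. The site chr11:65270937-65271015 (plus strand) had 704 and 620 reads at 10k and was in none of the other 8 lists used. The nearest 1k peaks lay 128 and 133 nt off, with 150 and 183 reads. The site chr11:65192835-65192936 (plus strand) had 215 and 193 reads at 10k and was listed in both 50k libraries with 197 and 144. Its nearest 1k peaks were 384 and 263 nt away. The highest read numbers among lost sites were on the mitochondrial chromosome. The site chrM:2824-2847 had 2493 and 2276 reads at 10k, and chrM:699-721 had 605 and 737. Both were also listed by both libraries without crosslinking, with 3759 and 4224 reads and with 1823 and 1632. The site chrM:2824-2847 was in both hnRNPc_10k libraries too, with 4462 and 3838 reads, and in neither hnRNPc_1k library and neither 50k library. The site chrM:699-721 was in both libraries of the 50k and of both hnRNP C groups. The lost sites thus included deep ones, most of them with a 1k peak within 200 nt. How often kept sites of like depth had a second 1k peak so close was not counted. Deep sites were often crowded: of 1439 sites with 64 to 127 reads, 928 had another site of both 10k libraries within 200 nt.

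Seen from the smaller input, more than 50% of the sites in each 1k list were in neither 10k list. These were 53.0% of the sites of replicate 1 and 58.9% of replicate 2, with a median of 6 reads. They held 38.8% and 44.1% of the reads summed over the strongest peak of each site. Sites with 5 reads at 1k were in at least 1 of the 10k libraries in 28.4% and 23.2% of cases. With 16 to 31 reads the shares were 95.7% and 91.2%, and with at least 64 reads 100% and 99.1%. Agreement between the 1k libraries made a large difference: of the 9864 sites they shared, 82.7% were in both 10k libraries and 727 (7.37%) in neither. Of the 87325 sites found in a single 1k library, 59034 (67.6%) were in no 10k library. Of these 59034 sites, 96.0% had a gene listed by both 10k libraries, and of the 727 sites 97.0%. How often any peak would fall in such a gene was not tested.

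**Figure D2:**
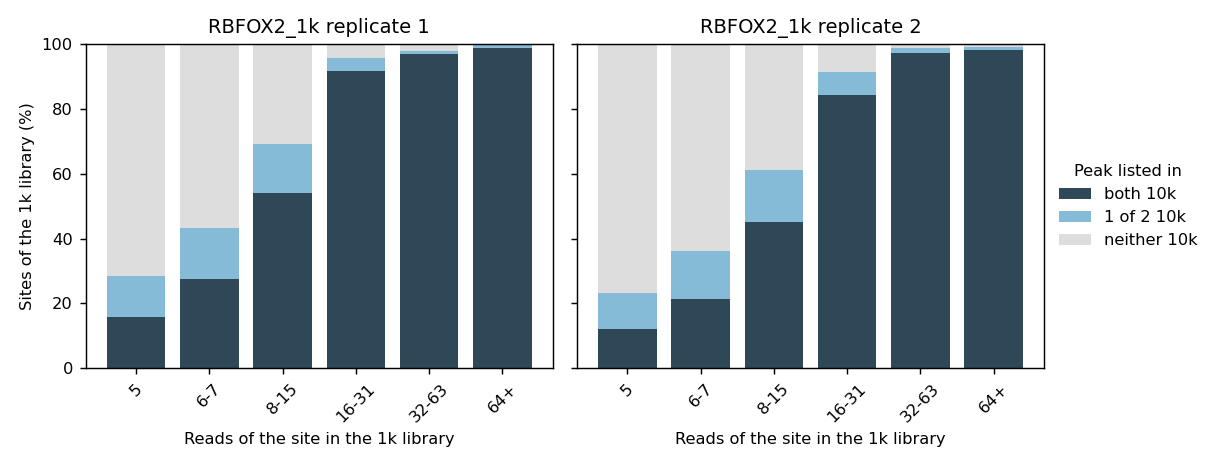
Sites of each RBFOX2_1k library by their own read number (horizontal axis) and the percent of them listed in both, 1 or neither of the RBFOX2_10k libraries (stacked bars). The share in neither 10k library is largest at 5 reads and small from 16 reads upward, where 95.7% and 91.2% were in at least 1 of them.

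The strongest of the 727 sites found in both 1k and no 10k library lay at chr5:174257323-174257341 (plus strand), with 53 and 47 reads. It was in none of the other 8 lists used. Its gene identifier, ENSG00000251670.1, had 53 and 52 reads in 2 and 3 peaks at 1k and no peak at 10k. The site chrX:73052649-73052695 (minus strand) had 42 and 40 reads, and chr11:65202649-65202694 (plus strand) 27 and 24, both absent from the other 8 lists. The site chr7:99952872-99952950 (plus strand) had 26 and 24 reads at 1k and was listed in 50k replicate 1 with 131. The site chr8:11710481-11710504 (minus strand) had 33 and 22. Among genes, ENSG00000231772.1 was in both 1k lists with 96 and 80 reads in 4 peaks each and in neither 10k list. Both hnRNPc_1k libraries listed it with 4 peaks, and 50k replicate 2 listed it with 1. In the other direction, ENSG00000255929.1 had 168 and 150 reads in 2 peaks each at 10k, no peak at 1k, and no peak in any of the other 8 lists. The next lost genes by reads were in both 50k libraries. ENSG00000198915.7 had 21 and 15 peaks there, ENSG00000160570.9 24 and 18, ENSG00000264063.1 3 and 1, and ENSG00000240990.5 7 and 6.

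The 50k lists, which had no role in choosing the sites, gave a yardstick. Peaks of RBFOX2_50k_lowRNase replicate 1 that replicate 2 overlapped numbered 117484. The 10k libraries found 55.3% and 57.8% of them and the 1k libraries 18.7% and 23.4%, so the groups did not overlap. The means were 56.5% ± 1.72 and 21.1% ± 3.31 (SD, n = 2 each), a difference of -35.5 percentage points (exact two-sided permutation p = 0.33). With lists of equal length the difference was -14.7 points. Whether the 50k libraries were prepared together with the smaller inputs is not given in the sources used here.

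Sites that both inputs shared were almost all in the 50k lists. Of the 8155 sites found in all 4 libraries, 98.8% were in at least 1 of the 50k libraries and 95.8% in both. For the 32114 sites of both 10k and neither 1k library these shares were 84.4% and 61.5%. They were 52.3% and 26.0% for the 727 sites of both 1k and neither 10k library, and 20.6% and 6.39% for the 59034 sites of a single 1k library. The median width of these sites, in the same order, was 136, 87, 81 and 49 nt. A wider site is overlapped more easily, and how far width entered these shares was not tested. Sites of equal reads also differed by their presence in the 50k lists. With 16 to 31 reads at 10k, sites in both 50k libraries were found by the 1k libraries in 43.9% and 53.1% of 8909 cases, and sites in neither in 20.9% and 21.8% of 412.

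The libraries without crosslinking held part of the shared sites too. At least 1 of them listed 34.6% of the 8155 sites found in all 4 libraries, 8.91% of those lost at 1k, 12.4% of the 727 and 3.67% of the 59034. Both listed 16.9%, 2.33%, 3.71% and 0.501%. Sites listed by at least 1 library without crosslinking had more reads at 10k, with a median lower read number of 23 against 9 for the others. Over all reads the 1k libraries found 46.8% and 52.7% of sites listed without crosslinking and 21.9% and 28.1% of the rest. Within a range of reads the gap was smaller but varied. At 16 to 31 reads, where it was smallest, they found 41.9% and 50.2% against 41.0% and 50.0%. At 128 to 255 reads they found 95.4% and 96.0% of 325 sites listed without crosslinking and 87.6% and 83.1% of the other 89. How far RNA carried along without crosslinking entered the shared sites was not tested. The hnRNPc_1k libraries were made from as few cells with the same RNase. At least 1 of them listed 21.6% of the sites found in all 4 libraries, and both listed 10.0%. At least 1 listed 11.3% of those lost at 1k, 12.4% of the 727 and 7.27% of the 59034. At the level of genes, all of these lists held a large share of what was kept. Both 50k libraries listed 99.6% of the genes kept in both 1k libraries, 82.7% of the 1448 lost and 34.5% of the 55 listed in both 1k and neither 10k library. At least 1 library without crosslinking listed 74.3%, 28.7% and 10.9% of these genes. At least 1 hnRNPc_1k library, made with another antibody, listed 92.0%, 63.6% and 40%.

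**Figure D3:**
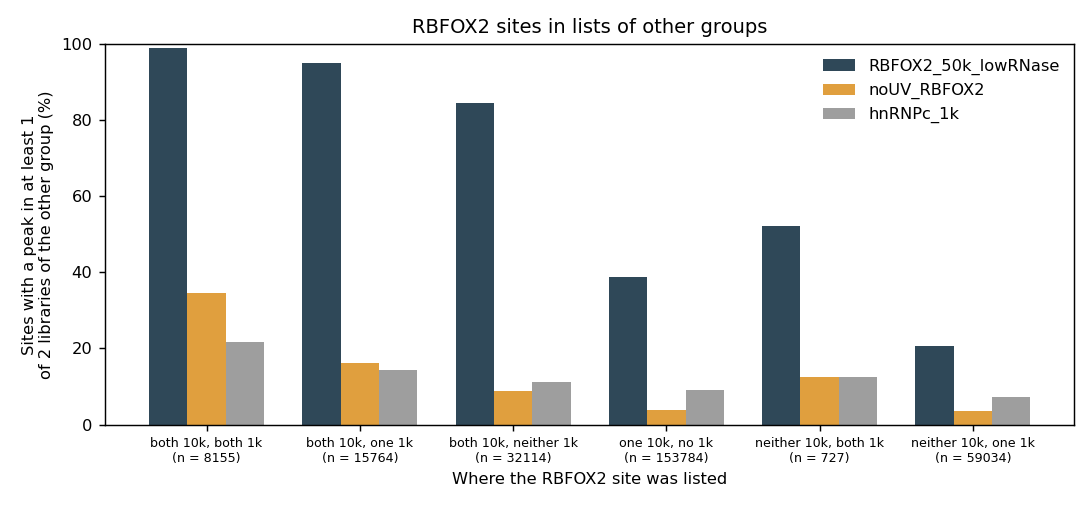
Percent of RBFOX2 sites, grouped by the 10k and 1k libraries that listed them (horizontal axis, with the number of sites), that had a peak in at least 1 library of RBFOX2_50k_lowRNase, noUV_RBFOX2 or hnRNPc_1k (bars). The 50k share is 98.8% for sites found in all 4 libraries, 84.4% for those of both 10k libraries alone and 20.6% for those of a single 1k library. The median widths of these sites are 136, 87 and 49 nt.

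Overlap was also counted with each list moved aside. Of 56495 regions where the 10k libraries overlapped, the 1k libraries covered 25.9% and 31.9%, and after a move of 1000 nt 4.78% and 6.29%. The hnRNPc_1k libraries covered 8.71% and 9.21% in place and 7.78% and 8.59% after the move. The noUV_RBFOX2 libraries covered 10.7% and 9.02% in place and 4.03% and 3.11% after the move. The RBFOX2_1k lists thus stood well above their moved value, and the uncrosslinked RBFOX2 lists also stood above theirs. The hnRNPc_1k lists, which were longer, were close to theirs.

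Differences in list length were removed by taking the same number of peaks with the smallest deposited p from each list. This did not make the reads equal. Among 1000 peaks the lowest read number was 84 and 98 at 10k and 22 and 28 at 1k. Among 49247 it was 8 and 9 against 5 and 5, so the 10k lists kept only their stronger peaks. With 1000 peaks, the 10k libraries overlapped by 87.6% (mean of both directions), the 1k libraries by 69.6%, and the pairs across inputs by 72.9% to 75.1%. With 49247 peaks, the length of the shortest list, the values were 60.5%, 20.8% and 32.2% to 33.7%. At each length tried, the pairs across inputs lay between the 10k pair and the 1k pair. The 1k peaks were spread over more genes, since the 1000 leading peaks fell in 371 and 330 genes at 10k and in 486 and 455 at 1k.

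**Figure D4:**
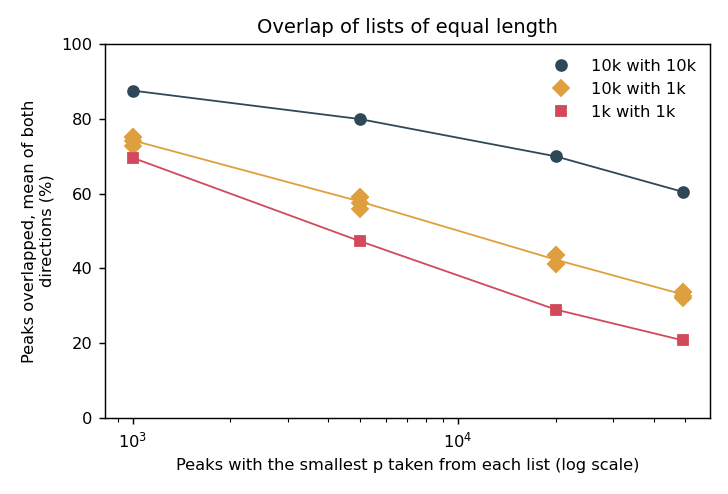
Overlap between lists cut to the same number of peaks with the smallest deposited p (horizontal axis, log scale), as the mean percent of both directions. Points are pairs of libraries and lines join the mean of each kind of pair. At 1000 peaks the 10k pair stood at 87.6% and the 1k pair at 69.6%, and at 49247 peaks at 60.5% and 20.8%.

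Peaks were narrower at 1k. The median width was 66 and 64 nt at 10k and 56 and 54 nt at 1k, with no overlap of the groups. The means were 65 ± 1.41 and 55 ± 1.41 nt (SD, n = 2 each), a difference of -10 nt (exact two-sided permutation p = 0.33). It was -5 nt among peaks with p below 1e-05 and -20 nt in lists of equal length, where the 10k medians were 76 and 75 nt. At the 8155 sites found in all 4 libraries the medians were 89 nt in each 10k library and 71 and 70 nt at 1k. The mean 1k peak was narrower than the mean 10k peak at 76.5% of these sites, and both 1k peaks were narrower than both 10k peaks at 43.6%, against 5.87% where both were wider. In hnRNP C the median width was 55 nt in both 10k libraries and 57 nt in both 1k libraries.

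The position of the peak centre was less sharp as well. The inner interval of each peak marks its centre, and at the 8155 shared sites the centres of the 10k libraries lay a median of 8 nt apart. Those of the 1k libraries lay 17 nt apart, and those of each of the 4 pairs across inputs 13 nt apart. Centres within 10 nt of each other made up 60.6% of sites between the 10k libraries, 36.6% between the 1k libraries and 42.9% to 43.8% across inputs.

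Read numbers at the shared sites were lower and more compressed at 1k. The medians were 33 and 36 reads at 10k and 9 and 11 at 1k, and the SD of log2 reads over sites was 1.29 and 1.34 against 0.956 and 1.03. Over the 8155 sites the Pearson correlation of log2 reads was 0.907 between the 10k libraries, 0.745 between the 1k libraries and 0.747 to 0.784 across inputs. These are descriptions across sites of the same 4 libraries, which are not independent replicates. For what is called a share of reads here, each library's log2 reads were centred on its median over the sites. This value is relative to the median site and is not a part of the summed reads. In the fifth of sites with the fewest reads the centred value was higher at 1k by a median of 0.82 on the log2 scale, and in the fifth with the most reads the median difference was -0.36. The floor of 5 reads lies close to the 1k median and far below the 10k median.

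A site could be tested only if it was listed in all 4 libraries. A site with few reads at 10k therefore entered only where both 1k libraries had at least 5 reads at it, which by itself favours higher shares at 1k among weak sites. The counts below describe the sites that passed this filter and are no evidence of a gain at 1k. Of the 8155 sites tested, 196 (2.4%) had a higher share of reads at 1k and 73 (0.895%) a lower one by limma's moderated test at a Benjamini-Hochberg adjusted p below 0.05. The calls lay at the 2 ends of the read scale. Of the 196 higher sites, 8 had at least 16 reads in both 10k libraries, and 70 of the 73 lower sites had at least 64. Only 10 of all sites had more raw reads in both 1k libraries than in both 10k libraries. The number called depended on the setting. It was 7 after quantile normalization, 8 among the sites at or above the median mean, 369 (267 higher) among the 3633 sites left with p below 1e-05, 499 (456 higher) when scaled to the summed reads, 543 without RBFOX2_1k replicate 1 (141 higher) and 708 without replicate 2 (260 higher). Scaling to the sum moved the median over all sites from 0.06 to 0.27.

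The log2 difference exceeded 3 in size at 3 sites. The site chr15:87435269-87435285 (plus strand, 17 nt) had 21908 and 27501 reads at 10k and 154 and 122 at 1k. Its share fell by 5.69 on the log2 scale (SE 0.183, limma adjusted p = 3.94e-16), in both 1k against both 10k libraries. It was in neither the 50k lists nor those without crosslinking nor hnRNPc_10k, while both hnRNPc_1k libraries listed it with 94 and 96 reads. By reads it ranked 2 in each 10k library and 52 and 98 in the 1k libraries. Its gene identifier is ENSG00000166748.8.

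The other pair moved the opposite way. The site chr1:66429524-66429544 (plus strand, 21 nt) had 26 and 32 reads at 10k and 305 and 282 at 1k, a rise of 5.14 in share (SE 0.328, limma adjusted p = 5.42e-10). It was in neither the 50k lists nor those without crosslinking. The hnRNPc_10k libraries listed it with 28 and 10 reads and the hnRNPc_1k libraries with 44 and 61. The site chr3:111708391-111708424 (plus strand, 34 nt) had 5 and 9 reads at 10k and 75 and 56 at 1k, a difference of 5.06 in share. With so few reads at 10k it entered the test only through its high 1k reads, so its difference is given as a value. It was absent from the same 50k and uncrosslinked lists and had 5 to 10 reads in the 4 hnRNP C libraries. All 3 sites were narrower than the median site of 65 nt. The chromosome 15 and chromosome 1 sites kept their call in 11 of 11 alternatives. The chromosome 3 difference was 4.70 to 5.43 when 1 library was left out.

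The next sites in each direction were less extreme. Among the lower ones, chr3:49050499-49050689 (plus strand) had 153 and 210 reads at 10k and 11 and 8 at 1k, and its share fell by 2.46 on the log2 scale (SE 0.401, limma adjusted p = 0.00588). The site chr22:21345437-21345558 (plus strand) had 82 and 77 reads against 5 and 5. The sites chr17:7230865-7231037 and chr17:79894976-79895124 (both minus strand) had 73 and 102 against 5 and 7, and 102 and 114 against 10 and 6. All 4 were in both 50k libraries, with 175 to 320 reads. The higher ones had 5 to 8 reads at 10k and could be tested only because the 1k reads reached the floor, so their differences are given as values. The site chr20:33903249-33903361 (minus strand) had 6 and 6 reads at 10k against 14 and 9 at 1k. The site chr7:5552793-5552881 (minus strand) had 5 and 8 against 13 and 8, and chr21:44417844-44417982 (plus strand) 7 and 5 against 9 and 9. These 3 were in both 50k libraries with 10 to 20 reads. None of the 4 lower sites was called after quantile normalization. Among sites at or above the median mean, the chromosome 22 site and both chromosome 17 sites were not called (limma adjusted p = 0.0895, 0.119 and 0.131). Leaving out 1 library also ended the call of chr22:21345437-21345558 (without RBFOX2_10k replicate 1), chr17:7230865-7231037 (without RBFOX2_10k replicate 2), chr17:79894976-79895124 (without either of these) and chr7:5552793-5552881 (without RBFOX2_1k replicate 1). Their log2 differences kept their sign when 1 library was left out, at -2.34 to -2.05, -2.25 to -1.90, -2.52 to -1.49 and 1.99 to 2.98.

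**Figure D5:**
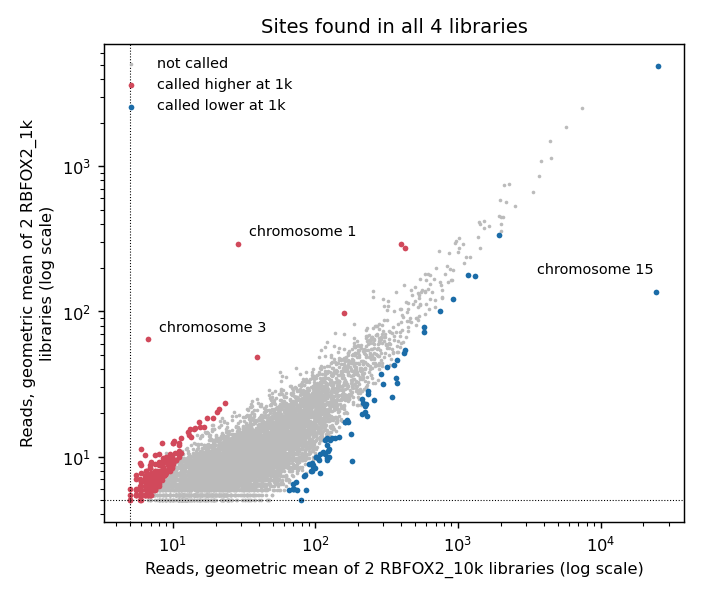
Reads at the 8155 sites found in all 4 libraries, as the geometric mean of the RBFOX2_10k libraries (horizontal axis, log scale) and of the RBFOX2_1k libraries (vertical axis, log scale). Each point is a site, coloured where limma called its share higher (196) or lower (73) at 1k, and dotted lines mark 5 reads, the smallest listed number. The 3 named sites on chromosomes 15, 1 and 3 lie outside the band of the others.

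Summed by gene over the sites found in all 4 libraries, 4111 genes were tested, under the same filter. The share of reads was higher at 1k for 116 (2.82%) and lower for 157 (3.82%) by limma at an adjusted p below 0.05. Of the 157 lower genes, 150 had at least 64 reads in both 10k libraries, and of the 116 higher ones 15 had at least 16. The genes of the chromosome 15, 1 and 3 sites, each with that single shared site, led both directions, with log2 differences of -5.77, 5.06 and 4.98. The chromosome 3 gene had 5 and 9 reads at 10k and entered through its 1k reads, so its difference is only a value. Without either 10k replicate 3 genes were called, after quantile normalization 8, and of the genes at or above the median mean 38. With p below 1e-05 it was 245 of 2194 genes, 132 of them higher and 113 lower. Scaled to the summed reads, 353 of the 385 called genes were higher at 1k.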

How the data were processed

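The deposited files were peak lists, 1 per library, with 8 columns: position, name, p-value, strand and an inner interval. Each p-value is the one the authors' peak caller (CLIPper, per the file names) gave the peak, up to 0.00363 in these 4 lists. The submitters' processing notes name hg19, STAR 2.7.3a and UMI-tools 1.0.1. The last number of the name was read as reads, which no source states. Sequenced depth is unknown, so no counting interval was given, and reads of different libraries are unscaled unless called shares.

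Sites joined peaks that shared at least 1 nt on a strand, and a site's reads were those of its strongest peak in a library. limma 3.58.1 (R 4.3.3) was fitted with a mean trend on median-centred log2 reads, after tests on simulated data. Single values used exact permutation tests (scipy 1.17.1). Alternatives were a p limit of 1e-05, equal lengths of 49247 peaks, other joining, scaling, filters, a pseudocount of 5, the replicate block and omitted libraries.

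Members and lists were chosen with earlier results of these data known. Named sites and genes were the 5 strongest, lost, gained and most changed of each kind, with 1 site per gene. No hg19 genome or annotation was used here, and 0 of 15121 gene identifiers matched a name, so the planned gene lists, cell type markers and sequences were left out. Some genes share peaks: 4.75% of the sites carried over 1 identifier.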

Additional observations from a re-analysis of the deposited data

Results flagged for a closer look

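Peak width moved in opposite directions in the 2 proteins profiled at both inputs. The median width in RBFOX2 was 66 and 64 nt at 10k and 56 and 54 nt at 1k, a difference of -10 nt, and in hnRNP C it was 55 nt in both 10k libraries and 57 nt in both 1k libraries, a difference of 2 nt. The change in RBFOX2 minus that in hnRNP C was -12 nt. Every library of each protein followed its own direction, and the difference between the proteins was not tested.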

How the results depend on the processing

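Peak number, median width and the share of 50k reference peaks kept their direction in every alternative run. The mean share of 10k genes found at 1k (77.6%) was 57.1% with p below 1e-05, 89.4% at equal length, 71.5% for genes with at least 2 sites, and 71.6% to 81.3% leaving out 1 library. The mean share of sites (28.6%) was 24.0% with p below 1e-05, 45.1% at equal length, 22.4% where 50% of the 10k peak had to be covered, and 13.2% to 31.7% leaving out 1 library. By construction, leaving out a 10k library adds sites seen in the other alone. Called sites (269, 72.9% of them higher at 1k) were 499 scaled to the sum (91.4% higher), 7 after quantile normalization (6 higher), 8 at or above the median mean (5 higher), 1390 with 5 added to the reads (836 higher), 369 with p below 1e-05 (267 higher), and 300 to 708 leaving out 1 library. Called genes (273, 42.5% higher) were 385 scaled to the sum (91.7% higher), 8 after quantile normalization (7 higher), 38 at or above the median mean (8 higher), 969 with 5 added (488 higher), 245 with p below 1e-05 (132 higher), and 3 to 394 leaving out 1 library. Among the 20% of features with the highest mean reads, an alternative chosen after seeing the data, 8 sites and 11 genes were called. The cause of the changes in these counts was not tested. With the replicate number as a block, 512 sites (375 higher) and 525 genes (235 higher) were called, which include all of the main calls. The labels do not say whether same-numbered libraries belong together. Over 8155 sites their deviations correlated at 0.0253, which cannot decide this, since the 1k reads lie close to the floor. The unknown depth and the floor of 5 reads limit what a site missing from a list can show.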
